A study of Mus musculus with 8 samples.

Results

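The small leucine-rich proteoglycans form a family of secreted matrix proteins, and 10 of their genes were followed here: Dcn (decorin), Bgn (biglycan), Aspn (asporin), Fmod (fibromodulin), Lum (lumican), Prelp, Omd (osteomodulin), Epyc (epiphycan), Ogn (osteoglycin, also called mimecan) and Chad (chondroadherin). They were chosen by gene name, as members of the family. All 10 were among the 26180 genes kept of the 28956 genes in the count tables. Their transcripts gave 4839910 of the unique molecular identifiers (UMIs, each standing for 1 captured transcript), which is 0.918% of all UMIs in the cells analysed.

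The cells were bone stromal cells of female C57BL/6 mice, from which blood cells had been depleted with antibodies against lineage markers, CD45 and CD117 before droplet-based 3′ single cell RNA-sequencing. Control mice were 12 weeks old and had no fracture. Fracture mice had the left leg broken by three-point bending at 10 weeks, were stabilized with a nail in the marrow cavity, and gave their cells at day 14 after fracture, when they were 12 weeks old as well. Each group had 2 cell preparations, each sequenced as 2 libraries. The labels do not say whether a preparation came from 1 animal, so the p-values measure the spread between preparations. The comparison asks which stromal cells carry these transcripts in intact bone and in a healing fracture, and how the levels differ.

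Small leucine-rich proteoglycans are built from a protein core of leucine-rich repeats that binds collagen and sets how collagen fibrils form and how thick they grow. They are grouped by the structure of the core. Decorin, biglycan and asporin belong to class I, and biglycan and decorin carry chondroitin or dermatan sulfate chains. Fibromodulin, lumican, PRELP and osteomodulin belong to class II and can carry keratan sulfate. Epiphycan and osteoglycin belong to class III, and chondroadherin to class IV. In the skeleton, epiphycan and chondroadherin are known as cartilage proteins, osteomodulin as a protein of mineralizing bone, and asporin as a protein of the periosteum, tendon and cartilage that binds transforming growth factor-β.

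The genes of the family lie in groups along the genome. On mouse chromosome 13 (build GRCm38), Aspn (49544443 to 49567565), Omd (49582462 to 49592822) and Ogn (49608046 to 49624501) follow each other on the forward strand, after the related gene Ecm2. On chromosome 10, Dcn (97479609 to 97518143), Lum (97565128 to 97572703) and Epyc (97644068 to 97682454) share the forward strand with the cornea gene Kera. On chromosome 1, Prelp (133910304 to 133921414, reverse strand) lies near Fmod (134037254 to 134048277, forward strand). Chad stands alone on chromosome 11 (94565047 to 94569127) and Bgn on chromosome X (73483602 to 73495933), both on the forward strand. Some members overlap a gene on the other strand: Aspn, Omd and Ogn overlap the centromere protein gene Cenpp, Chad overlaps Acsf2, Prelp overlaps Gm15851 and Epyc overlaps Gm10754. The exons of Omd and Ogn share 0 bases with those of Cenpp and the exons of Chad 0 bases with those of Acsf2. The exons of Aspn and Cenpp share 7 bases, those of Prelp and Gm15851 350 bases, and those of Epyc and Gm10754 1041 bases. Whether reads were counted by strand is not stated, so reads from shared bases cannot be told apart here. The same holds for reads from introns of the other gene that cover exons of a member.

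The promoters of the 2 members that rose most (Aspn and Omd) and the 2 that fell most (Chad and Epyc) in chondrocyte-like cells of the fracture group are shown, as examples of each direction. Each window runs from 250 bases before to 50 bases after the RefSeq start on build GRCm38.p6, forward strand, 5′ to 3′, with capitals for matches on either strand to the TATA box (spelled TATAAA here), the AP-1 motif (spelled TGANTCA here), the Runx motif (spelled TGTGGT here) or the Sox motif (spelled AACAAT here):
Aspn, chr13:49544193-49544492: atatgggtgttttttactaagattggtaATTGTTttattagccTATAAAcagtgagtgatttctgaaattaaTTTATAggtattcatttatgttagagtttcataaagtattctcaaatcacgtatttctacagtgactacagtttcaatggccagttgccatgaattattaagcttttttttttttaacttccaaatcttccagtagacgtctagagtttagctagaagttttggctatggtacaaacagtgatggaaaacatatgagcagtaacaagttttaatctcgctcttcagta
Omd, chr13:49582212-49582511: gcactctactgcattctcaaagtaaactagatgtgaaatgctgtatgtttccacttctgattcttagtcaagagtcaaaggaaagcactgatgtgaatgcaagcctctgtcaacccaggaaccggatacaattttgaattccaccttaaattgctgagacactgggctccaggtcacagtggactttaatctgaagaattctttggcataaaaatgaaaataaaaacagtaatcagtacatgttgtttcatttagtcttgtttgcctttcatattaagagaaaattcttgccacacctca
Epyc, chr10:97643818-97644117: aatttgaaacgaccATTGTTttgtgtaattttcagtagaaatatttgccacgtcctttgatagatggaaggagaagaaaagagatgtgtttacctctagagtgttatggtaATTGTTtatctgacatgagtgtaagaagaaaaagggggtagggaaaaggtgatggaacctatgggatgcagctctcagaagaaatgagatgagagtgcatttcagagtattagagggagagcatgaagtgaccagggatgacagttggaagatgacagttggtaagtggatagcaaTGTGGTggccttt
Chad, chr11:94564797-94565096: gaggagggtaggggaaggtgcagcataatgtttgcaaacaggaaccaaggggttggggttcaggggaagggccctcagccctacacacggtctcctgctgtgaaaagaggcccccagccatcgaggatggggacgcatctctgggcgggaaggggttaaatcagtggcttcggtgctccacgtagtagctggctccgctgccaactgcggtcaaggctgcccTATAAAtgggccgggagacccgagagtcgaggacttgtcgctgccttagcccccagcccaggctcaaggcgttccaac
The Aspn window held 2 TATAAA matches, the first at -207 from the start, and 1 AACAAT match at -222. The Omd window held none of the 4 motifs. The Epyc window held 2 AACAAT matches, the first at -236, and 1 TGTGGT match at 37, whereas the Chad window held TATAAA at -28. Among 32817 promoter windows of the same length, 13.6% held TATAAA, 7.81% TGANTCA, 16.8% TGTGGT and 10.7% AACAAT. RefSeq windows were at hand for 8 of the 10 members, without Dcn and Lum.

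The libraries held 56543151 to 89126291 UMIs. After the study's filters on genes and mitochondrial reads, 45328 of 48903 barcodes remained, of which 20676 were Control and 24652 Fracture cells. The median cell had 7711 UMIs in Control and 11351 UMIs in Fracture. The smallest barcode had 1 UMI in Control and 1929 UMIs in Fracture, and how the barcodes of these tables were selected before deposit is not stated. Libraries of 1 preparation shared 17 to 46 cell barcodes and libraries of different preparations 11 to 36. Clusters were named from marker genes as chondrocyte-like, osteoblast-like, bone mesenchymal stromal cell-like (BMSC-like), fibroblast-like, endothelial-like and smooth muscle-like cells, beside erythroid-like, basophil- or granulocyte-like and megakaryocyte-like blood cells. The 10 members and the genes of the related lists counted below took no part in the clustering. Other matrix genes, such as Col10a1, were not left out, and Col2a1 of these lists was among the markers that named the clusters. All markers of the class were at least 2-fold above the other clusters in each of the 6 stromal classes. Of the stromal cells, 18.16% ± 6.498 (SD, n = 2) were chondrocyte-like in Control and 58.09% ± 1.032 in Fracture, whereas 31.83% ± 3.875 and 9.11% ± 0.078 were BMSC-like. Without integration, the BMSC-like cluster held 1204 Fracture cells instead of 2177 and the fibroblast-like cluster 2276 instead of 1469, while Control changed from 4392 to 4449 and from 487 to 584 cells, so the values in Fracture BMSC-like cells depend on how the libraries were joined.

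In Control, the members differed widely in the class that held their highest level, here given as CPM, the UMIs of the gene scaled to a fixed total for the class (counts per 1000000 UMIs). Dcn was highest in fibroblast-like cells, with 34070 and 22220 CPM in the 2 Control preparations, followed by osteoblast-like cells with 7091 and 6553 CPM. Bgn was more even, at 2762 and 2421 CPM in chondrocyte-like, 2456 and 2210 CPM in osteoblast-like and 2348 and 2131 CPM in BMSC-like cells, and the range of osteoblast-like cells overlapped with those of both other classes. Chad was highest in chondrocyte-like cells, with 5014 and 5709 CPM, and then in fibroblast-like cells, with 3005 and 2260 CPM. Epyc was at 502 and 452 CPM in chondrocyte-like cells and at 10.4 CPM or less in the other stromal classes. Omd was at 223 and 192 CPM in chondrocyte-like and at 228 and 127 CPM in fibroblast-like cells, which overlap. Aspn was highest in smooth muscle-like cells, with 907 and 890 CPM, and then in fibroblast-like cells, with 610 and 545 CPM. Ogn was highest in BMSC-like cells, with 461 and 517 CPM. Prelp was highest in fibroblast-like cells, with 2056 and 1228 CPM, followed by chondrocyte-like cells with 1096 and 887 CPM, so that these classes did not overlap. Lum was highest in osteoblast-like cells, with 1933 and 1490 CPM, and Fmod in chondrocyte-like cells, with 1846 and 1566 CPM.

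In Fracture, 6 of the 10 members kept the class with the highest mean level (Dcn, Prelp, Ogn, Omd, Epyc and Chad), whereas Aspn, Bgn, Fmod and Lum were highest in fibroblast-like cells. In those cells, the 2 Fracture preparations held 1998 and 1876 CPM of Aspn, 6196 and 6145 CPM of Bgn, 2300 and 2293 CPM of Fmod, and 3681 and 3397 CPM of Lum. Summed over the 10 members, the level was highest in fibroblast-like cells of both groups, at 37110 ± 11420 CPM in Control and 25430 ± 734 CPM in Fracture. It was 13680 ± 359.3 and 11520 ± 119 CPM in chondrocyte-like cells, 11070 ± 917.2 and 10740 ± 225.5 CPM in osteoblast-like cells, and 4736 ± 782 and 8159 ± 54.55 CPM in BMSC-like cells (SD, n = 2 preparations each). Classes come from clusters of these same cells and were not tested against each other. Counts of 3′ tags do not scale with transcript length, and levels of different genes can differ in how well they are captured.

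**Figure D1:**
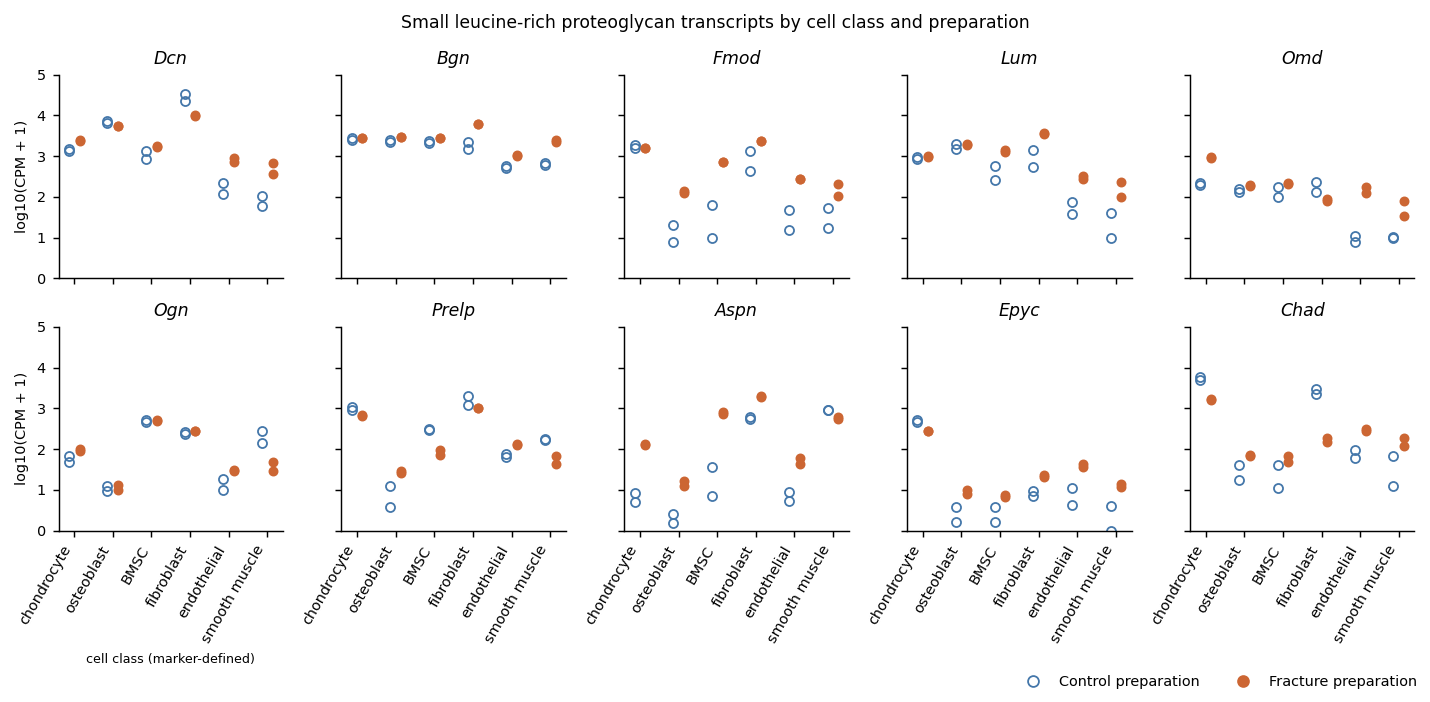
Level of each gene as log10(CPM + 1) in the 6 stromal classes, 1 point for each preparation (open, Control; filled, Fracture). Aspn lies at 3.97 and 7.34 CPM in Control chondrocyte-like cells and at 126 and 134 CPM in Fracture, and Chad lies lower in the Fracture preparations of chondrocyte-like and fibroblast-like cells.

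Fracture was then compared with Control within each class by edgeR's quasi-likelihood test on UMIs summed per preparation, with p-values adjusted over all genes tested in the class and a threshold of 0.05. In chondrocyte-like cells, 5 of the 10 members rose (Dcn, Lum, Omd, Ogn and Aspn) and 3 fell (Prelp, Epyc and Chad), beside 37.3% of all genes tested that were called. In osteoblast-like cells, 3 rose (Fmod, Omd and Aspn) beside 16.4% of all genes. In BMSC-like cells, 5 rose (Dcn, Bgn, Fmod, Lum and Aspn) and Prelp fell, beside 50.6% of all genes. In fibroblast-like cells, 3 rose (Bgn, Aspn and Epyc) and 2 fell (Dcn and Chad), beside 15.8% of all genes. In endothelial-like cells, all 10 rose beside 36.2% of all genes, of which the call of Ogn (1.24) was lost among cells with at least 3000 UMIs and without integration and was at 2.01 without called doublets. In smooth muscle-like cells 4 rose (Dcn, Bgn, Lum and Omd) and 3 fell (Ogn, Prelp and Aspn) beside 25.9% of all genes. Of these rises, Dcn, Lum and Omd were lost without integration (0.92, 1.03 and 1.05), and Lum with DESeq2 and without a filter on low counts as well. These counts rested on both Fracture preparations. Without either one, no member was called in chondrocyte-like, osteoblast-like, fibroblast-like or endothelial-like cells by edgeR, with 6 to 7, 2 to 3, 5 and 9 members at an unadjusted p under 0.05, and 1 (Prelp) was called in BMSC-like and 4 in smooth muscle-like cells. Without Control preparation 1 or 2, 7 to 9 members were called in chondrocyte-like, 6 to 7 in osteoblast-like, 9 to 10 in BMSC-like, 9 in fibroblast-like and 10 in endothelial-like cells, but 0 to 1 in smooth muscle-like cells, where 6 to 9 had an unadjusted p under 0.05. DESeq2 on all preparations called 9, 5, 9, 7, 10 and 6 members in chondrocyte-like, osteoblast-like, BMSC-like, fibroblast-like, endothelial-like and smooth muscle-like cells. The share of all genes called is given for the main edgeR fit only. Counts under DESeq2 or with a preparation left out therefore cannot be set against such a share. The scaling of edgeR raised log2 fold changes relative to plain CPM by 0.152 in chondrocyte-like, 0.196 in BMSC-like and 0.12 in endothelial-like cells, and by 0.208 over all stromal cells.

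**Figure D2:**
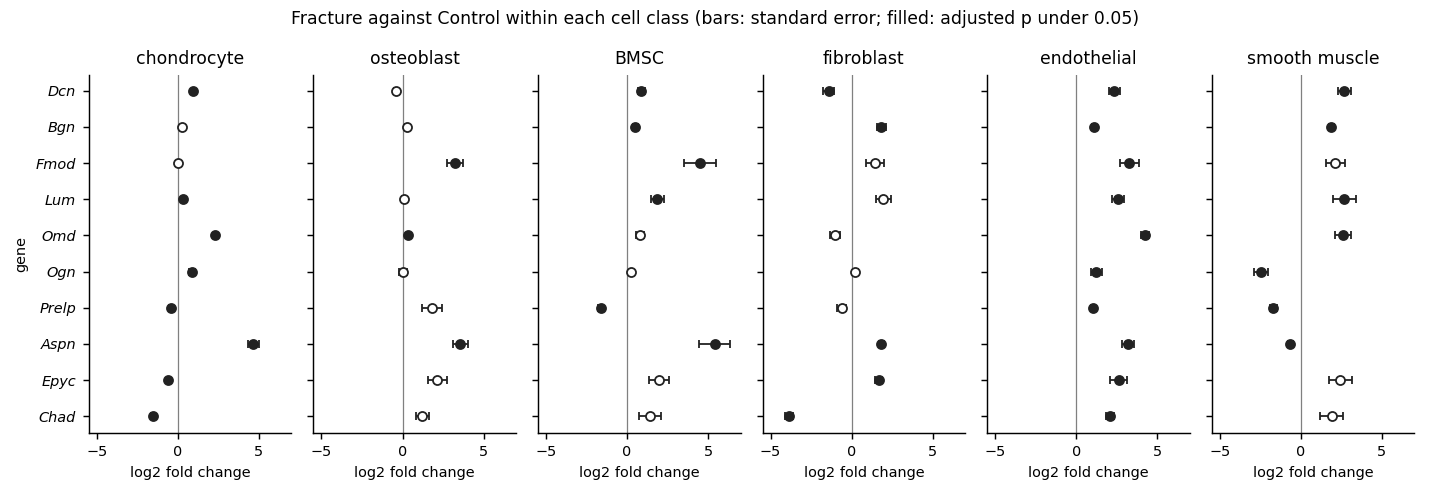
Log2 fold change of Fracture against Control for each gene within each class, from edgeR, with standard errors as bars and filled points where the adjusted p was under 0.05. All 10 points are filled and positive in endothelial-like cells (Ogn and Epyc not in every alternative setting), and Chad lies at -3.90 in fibroblast-like and -1.54 in chondrocyte-like cells.

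Among the class I genes, asporin had the largest log2 fold changes in BMSC-like, chondrocyte-like and osteoblast-like cells. In BMSC-like cells Aspn was at 35.1 and 5.97 CPM in Control and at 796 and 717 CPM in Fracture, and the groups did not overlap. The log2 fold change was 5.4 ± 0.94 (SE, edgeR adjusted p = 0.0112, n = 2 against 2), with values from 3.34 without integration to 7.19 without Control preparation 1. Chondrocyte-like cells showed a rise of Aspn from 7.34 and 3.97 CPM to 134 and 126 CPM (4.66 ± 0.33, edgeR adjusted p = 0.00258). In fibroblast-like cells, which held it in Control already, the level went up from 610 and 545 CPM to 1998 and 1876 CPM (1.82 ± 0.15, edgeR adjusted p = 0.00623). Smooth muscle-like cells went the other way, from 907 and 890 CPM to 535 and 603 CPM (-0.65 ± 0.13, edgeR adjusted p = 0.0237). In osteoblast-like cells Aspn rose from 1.5 and 0.538 CPM to 11.4 and 15.2 CPM, and this level was no higher than the 35.6 to 37.7 CPM in Fracture erythroid-like cells, a blood class used here as a background. Erythroid-like cells held 27.2 and 30.6 CPM of Aspn in Control as well, so for this gene a level below theirs cannot be read as background. In erythroid-like cells Cenpp, the gene on the other strand, was at 54.3 to 72.6 CPM in the 4 preparations, against 0.831 to 1.69 CPM in osteoblast-like cells. Relative to the level over all cells of the same preparation, Control erythroid-like cells held Aspn at 55.7% and 101%. Omd was at 24.2% and 27.7% and Ogn at 10.5% and 8.77% there, beside 0.701% to 9.34% for the members that do not overlap Cenpp. The part of Cenpp reads in the counts of Aspn, Omd and Ogn was not tested.

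Decorin, which binds fibrillar collagen and growth factors, differed in direction between classes. In fibroblast-like cells Dcn fell from 34070 and 22220 CPM to 10200 and 9657 CPM (-1.43 ± 0.33, edgeR adjusted p = 0.0472), a call that was lost without called doublets, with a ratio of mean levels of 0.355 against 0.353 with them. It rose in chondrocyte-like cells, where Control held 1468 and 1316 CPM and Fracture 2497 and 2317 CPM (0.94 ± 0.09, edgeR adjusted p = 0.00465). In BMSC-like cells it was at 1301 and 845 CPM in Control and 1688 and 1748 CPM in Fracture (0.88 ± 0.23, edgeR adjusted p = 0.0337), and with clusters from unintegrated data the value was -0.13 and was not called. In osteoblast-like cells the 4 preparations held 7091, 6553, 5554 and 5401 CPM and the difference was not called (-0.39 ± 0.12, edgeR adjusted p = 0.0955). Biglycan, its closest relative in the family, rose in fibroblast-like cells from 2234 and 1454 CPM to 6196 and 6145 CPM (1.82 ± 0.27, edgeR adjusted p = 0.0199). In chondrocyte-like, osteoblast-like and BMSC-like cells all 4 preparations of Bgn lay between 2131 and 2939 CPM. Of these classes, BMSC-like cells were called (0.50 ± 0.15, edgeR adjusted p = 0.0449), but the call was lost among cells with at least 3000 UMIs, and with clusters from unintegrated data the value was -0.31. Smooth muscle-like cells held 676 and 598 CPM of Bgn in Control and 2459 and 2200 CPM in Fracture (1.88 ± 0.15, edgeR adjusted p = 0.00392). Summed over the 8 fibroblast markers, fibroblast-like cells held 18690 and 21160 CPM in Control and 7132 and 7363 CPM in Fracture, and the part of this shift in the values of fibroblast-like cells was not tested.

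Among the class II genes, fibromodulin and lumican rose in BMSC-like cells. Fmod was at 63.3 and 8.79 CPM in Control and 725 and 701 CPM in Fracture (4.5 ± 1.00, edgeR adjusted p = 0.0213). Lum was at 581 and 262 CPM in Control and 1285 and 1398 CPM in Fracture (1.87 ± 0.40, edgeR adjusted p = 0.0189). In both genes the 2 Control preparations differed more than the Fracture preparations. The classes with the highest Control levels of these transcripts did not separate the groups in the same way. In chondrocyte-like cells Fmod was at 1846, 1566, 1557 and 1569 CPM and the groups overlapped (0.03 ± 0.10, edgeR adjusted p = 0.855). Lum rose in the same cells from 946 and 830 CPM to 1028 and 959 CPM (0.31 ± 0.08, edgeR adjusted p = 0.0461), a call that was lost without called doublets and among cells with at least 3000 UMIs. The ratio of mean levels was 1.11 under both settings, against 1.12 over all cells of the class. In osteoblast-like cells Lum was at 1933, 1490, 1943 and 1830 CPM and the groups overlapped as well (0.07 ± 0.13, edgeR adjusted p = 0.739). In fibroblast-like cells Lum was at 1369 and 537 CPM in Control and 3681 and 3397 CPM in Fracture, with an edgeR adjusted p of 0.0545, and Fmod at 1339 and 420 CPM against 2300 and 2293 CPM, with an edgeR adjusted p of 0.142. Osteoblast-like cells held 19.3 and 6.84 CPM of Fmod in Control and 137 and 123 CPM in Fracture (3.25 ± 0.49, edgeR adjusted p = 0.0214), while the Fracture blood classes held levels near or above these, with 109 and 81.1 CPM in erythroid-like, 207 and 122 CPM in basophil- or granulocyte-like and 492 and 133 CPM in megakaryocyte-like cells. The Fracture preparations held only 23 and 21 megakaryocyte-like cells, so values of that class are imprecise.

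Osteomodulin and PRELP, the other class II genes, moved apart in chondrocyte-like cells. Omd rose there from 223 and 192 CPM to 959 and 899 CPM (2.32 ± 0.09, edgeR adjusted p = 0.0012). It was steadier in osteoblast-like cells, where it is known as a bone protein, with 153 and 132 CPM in Control and 197 and 182 CPM in Fracture (0.34 ± 0.08, edgeR adjusted p = 0.0471, lost without a filter on low counts, without called doublets and without integration, with values from 0.26 to 0.41 over all alternative settings). In fibroblast-like cells Omd was at 228, 127, 85.6 and 78.2 CPM (-1.05 ± 0.30, edgeR adjusted p = 0.0779). Prelp fell in BMSC-like cells from 287 and 302 CPM to 70.1 and 94.9 CPM (-1.64 ± 0.17, edgeR adjusted p = 0.00385), the one call in that class that held whichever preparation was left out, with a value of -3.01 without integration. It fell in smooth muscle-like cells from 170 and 180 CPM to 65.1 and 41.98 CPM (-1.70 ± 0.23, edgeR adjusted p = 0.00852). In chondrocyte-like cells it was at 1096 and 887 CPM in Control and 653 and 683 CPM in Fracture (-0.42 ± 0.11, edgeR adjusted p = 0.0492), and this call was lost with DESeq2's size factors in edgeR, without a filter on low counts and without called doublets. The value ran from -0.55 to -0.26 over all alternative settings, with -0.26 without Control preparation 1. The ratio of mean levels was 0.674 with and without called doublets.

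Epiphycan and chondroadherin, both cartilage proteins, fell in chondrocyte-like cells. Epyc was at 502 and 452 CPM in Control and 278 and 274 CPM in Fracture (-0.64 ± 0.06, edgeR adjusted p = 0.00507). Chad was at 5014 and 5709 CPM in Control and 1591 and 1718 CPM in Fracture (-1.54 ± 0.13, edgeR adjusted p = 0.00342). The groups did not overlap for either gene. In fibroblast-like cells Chad fell from 3005 and 2260 CPM to 188 and 147 CPM (-3.90 ± 0.25, edgeR adjusted p = 0.00405), beside 171 and 77.6 CPM in Fracture erythroid-like cells. Epyc was called higher in fibroblast-like cells (1.66 ± 0.23, edgeR adjusted p = 0.0163), a call that was lost without integration (0.91), and it held 6.06 and 8.59 CPM there in Control and 19.6 and 22.1 CPM in Fracture. Fracture blood cells held 5.34 and 7.33 CPM of Epyc (erythroid-like), 29.6 and 27.4 CPM (basophil- or granulocyte-like) and 43.6 and 45.7 CPM (megakaryocyte-like, only 23 and 21 cells), so the level in fibroblast-like cells lay within that of the blood classes. Chadl, a gene close in sequence to Chad, fell in chondrocyte-like cells too, from 435 and 460 CPM to 232 and 200 CPM (-0.90 ± 0.09, edgeR adjusted p = 0.00491). Osteoglycin, the other class III gene, was at 461, 517, 497 and 526 CPM in BMSC-like cells and the groups overlapped. In chondrocyte-like cells Ogn rose from 67.9 and 46.2 CPM to 89.8 and 99.7 CPM (0.89 ± 0.19, edgeR adjusted p = 0.029), a call that was lost with the preparation number as a block. In smooth muscle-like cells Ogn fell from 283 and 138 CPM to 28.5 and 48.1 CPM (-2.46 ± 0.43, edgeR adjusted p = 0.0165). The calls of Ogn, Aspn and Lum in smooth muscle-like cells were each lost when any single preparation was left out.

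In endothelial-like cells all 10 members rose, and the markers of chondrocyte-like cells were higher in Fracture there as well. Each level was therefore set against the level over all cells of the same preparation, as a percentage. The 9 chondrocyte markers lay between 5.48% and 9.85% in the Control preparations and between 18.6% and 23.9% in the Fracture preparations, with none at 0. The members lay between 5.56% and 43.1% in Control and between 16.7% and 38.2% in Fracture. Fmod, for example, was at 9.77% and 6.59% in Control and at 22.9% and 22.6% in Fracture. In both Control preparations 4 members stood above all 9 markers: Bgn at 34.6% and 43.1%, Prelp at 21.6% and 34.8%, Aspn at 16.4% and 13.9%, and Ogn at 19.1% and 10.2%. For Aspn, Control blood cells stood higher, at 55.7% and 101% (erythroid-like) and 22% and 29.1% (basophil- or granulocyte-like). Ogn was at 10.5% and 8.77% in Control erythroid-like cells. Without called doublets, its level in Control endothelial-like cells was 9.57 and 3.82 CPM, against 17.5 and 8.75 CPM with them. In Fracture endothelial-like cells, Bgn at 38.2% and 35.8%, Prelp at 26.1% in both preparations, Chad at 28.8% and 25% and Dcn at 28.4% and 24% stood above all 9 markers. Blood cells made up 28.18% and 36.79% of all cells in Control but 2.78% and 3.06% in Fracture, which raises these percentages in Control. Against the level over stromal cells alone, the members lay between 3.32% and 25.8% in Control and between 16.4% and 37.5% in Fracture. Each member was then higher in both Fracture preparations than in both Control preparations, Bgn among them at 25.2% and 25.8% against 37.5% and 35.1%. Neither the chondrocyte markers nor the share of all genes was computed on this scale, so the count cannot be read as high for the members. The part of cartilage RNA taken up by other droplets in the rise of the members was not tested. Smooth muscle-like cells held 2.5% to 4.38% and 0.505% to 2.86% of the level of the chondrocyte markers in the Control preparations, and 6.29% to 17.4% and 5.54% to 9.7% in the Fracture preparations. Of the members that rose there, Dcn went from 3.31% and 2.88% to 21.8% and 12.1%, Lum from 4.86% and 1.81% to 19.1% and 8.54%, and Omd was at 7.97% and 11.5% in Control and at 11.9% and 5.2% in Fracture. Bgn, the other member that rose there, stood above the markers in both groups, with 40.6% and 51.5% in Control and 87.2% and 79% in Fracture. Fracture erythroid-like cells held Dcn at 25.4% and 18.8%, Lum at 25.6% and 21%, Omd at 18.2% and 12.5%, and Bgn at 20.8% and 12.8%. In osteoblast-like cells Aspn, Fmod, Prelp, Epyc and Chad lay between 0.979% and 4.01% in Control and between 3.96% and 11.4% in Fracture, beside 0.94% to 36.9% and 3.26% to 8.72% for the chondrocyte markers.

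**Figure D3:**
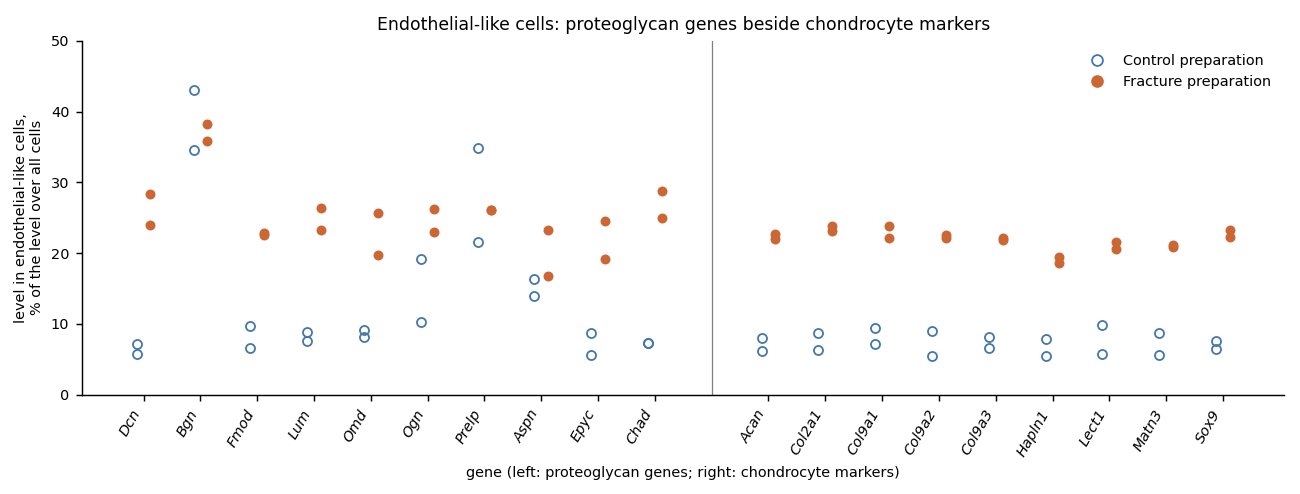
Level in endothelial-like cells as a percentage of the level over all cells of the same preparation, for the 10 proteoglycan genes (left) and the 9 chondrocyte markers (right), with 1 point for each preparation. The markers move from at most 9.85% in Control to at least 18.6% in Fracture, and 8 of the proteoglycan genes lie below 20% in Control.

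The share of cells with at least 1 UMI of a gene was compared at equal depth. Cells were thinned to 1000 UMIs, and cells with fewer were left out, which removed 12 chondrocyte-like, 6 osteoblast-like, 69 BMSC-like, 7 fibroblast-like, 92 endothelial-like, 15 smooth muscle-like and 19 erythroid-like cells of Control and none of Fracture. Aspn was found in 0.658% ± 0.539 of Control and 25.8% ± 1.39 of Fracture BMSC-like cells (SD, n = 2; 2.28% and 43.2% without thinning), beside 2.64% and 3.52% of erythroid-like cells. Fmod was found in 1.85% ± 1.72 and 32.4% ± 0.467 of BMSC-like cells (7.13% and 66.8% without thinning), beside 0.928% and 6.37% of erythroid-like cells. Omd was found in 13.7% ± 1.09 and 35.9% ± 0.375 of chondrocyte-like cells (50.7% and 70.9% without thinning), beside 2.23% and 6.43%. Chad was found in 32.5% ± 12.2 and 6.78% ± 0.058 of fibroblast-like cells (42.9% and 29.9% without thinning), beside 2.76% and 5.93% of erythroid-like cells, so its Fracture share stood near the background. In osteoblast-like cells Aspn was found in 0.112% and 0.947% of cells, below the erythroid-like shares. Erythroid-like cells held more Aspn than osteoblast-like cells in Control already, at 27.2 and 30.6 CPM against 1.5 and 0.538 CPM. This comparison therefore cannot tell whether Aspn in osteoblast-like cells is background. The median depth of erythroid-like cells was 6273.5 UMIs in Control and 7342.5 UMIs in Fracture, against 5847.5 and 8584 UMIs in BMSC-like cells and 19095 and 11574 UMIs in osteoblast-like cells.

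Values within chondrocyte-like and BMSC-like cells joined subclusters whose shares differed between the groups. A cluster led by Col10a1 and Ihh held 58.5% and 61.6% of the chondrocyte-like cells in Control and 82.9% in both Fracture preparations, and the rest lay in a cluster led by Serpina1a. These shares depend on the integration of the libraries. Without it, the clusters led by Aldh1a3 and Col10a1 and by Serpina1a held 453 and 2181 Control cells and 11590 and 2445 Fracture cells, so that most Control and most Fracture chondrocyte-like cells lay in different clusters. After subclustering, the levels are described without a test. Subclusters were formed after integration only, and their markers were computed over the cells of both groups together. The dpMSC-like subcluster below held 2926 Control and 942 Fracture cells. Its markers, like those of the mpMSC-like one, were therefore not shown for Fracture cells alone. In dpMSC-like cells (5 of 5 diaphyseal stromal cell markers, among them Cxcl12 and Lepr), which made up 36.14% and 42.67% of the joined osteoblast-like, fibroblast-like and BMSC-like cells in Control and 13.27% and 13.29% in Fracture, Aspn was at 16.5 and 2.45 CPM in Control and 1542 and 1492 CPM in Fracture. Fmod was at 15.8 and 4.17 CPM against 1020 and 961 CPM in these cells, and Lum at 112 and 69.4 CPM against 1884 and 1980 CPM. Dcn was at 662 and 593 CPM against 3616 and 3778 CPM. In mpMSC-like cells (4 of 5 metaphyseal stromal cell markers, among them Mmp9) the same genes were closer, with Aspn at 6.13 and 12.3 CPM against 78.4 and 80.8 CPM, Fmod at 41.2 and 21.9 CPM against 216 and 228 CPM, and Lum at 1122 and 768 CPM against 1290 and 1369 CPM. The Fracture erythroid-like and basophil- or granulocyte-like cells held 81.1 to 207 CPM of Fmod and 25 to 67.5 CPM of Aspn. Fracture megakaryocyte-like cells, only 23 and 21 cells, held 492 and 133 CPM of Fmod and 37.4 and 0 CPM of Aspn. Dcn was lower in the Fracture preparations of mpMSC-like cells, at 2092 and 1519 CPM against 1291 and 1244 CPM. Prelp was at 514 and 444 CPM in Control and 137 and 154 CPM in Fracture in dpMSC-like cells, against 27.7, 31.9, 20.7 and 24.5 CPM in mpMSC-like cells. The subcluster of most fibroblast-like cells, led by Cilp and Cytl1, held more Prelp than either, with 2100 and 1294 CPM in Control and 1065 and 1087 CPM in Fracture. It had 7 of 8 fibroblast markers but also 9 of 9 chondrocyte markers more than 2-fold above the other subclusters of the joined cells.

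Among chondrocyte-like subclusters, the resting-like cells (4 of 4 resting zone markers, among them Ucma and Sfrp5, and also 2 of 4 superficial zone markers, among them Cilp) held the highest levels of Aspn and Omd in Fracture. There Aspn was at 10.3 and 4.42 CPM in Control and 434 and 400 CPM in Fracture, and Omd at 834 and 797 CPM against 2354 and 2211 CPM. Ogn was at 267 and 175 CPM against 415 and 475 CPM in the same cells. The subcluster led by Aldh1a3, with 3 of 5 hypertrophic and 3 of 4 prehypertrophic markers, held the widest shift of Chad, at 7194 and 8312 CPM against 1385 and 1542 CPM. Epyc was at 522 and 473 CPM against 200 and 201 CPM in that subcluster, whereas Prelp was higher in Fracture, at 435 and 324 CPM against 601 and 655 CPM. Epyc was higher in Fracture in 3 of the 5 subclusters with at least 20 cells in every preparation, although it fell over the class. It was at 658 and 611 CPM against 829 and 791 CPM in the subcluster led by Serpina1a, at 176 and 152 CPM against 272 and 306 CPM in resting-like cells, and at 581 and 443 CPM against 664 and 628 CPM in the cycling cells led by Pbk and Top2a. Lum, which rose over the class, was lower in Fracture in the Aldh1a3-led cells, at 1372 and 1206 CPM against 1056 and 981 CPM, and in those led by Dmp1, at 1121 and 964 CPM against 678 and 656 CPM. It was higher in resting-like cells, at 1258 and 738 CPM against 2015 and 1866 CPM, and in the cycling cells, at 431 and 405 CPM against 868 and 787 CPM. In the Serpina1a-led cells Lum overlapped between the groups, and Omd was at 170, 172, 156 and 177 CPM, which overlap. Chad was lower in Fracture in each of these 5 subclusters. Between the Aldh1a3-led and Serpina1a-led cells, the direction of Epyc and Prelp therefore differed, and the difference was not tested.

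**Figure D4:**
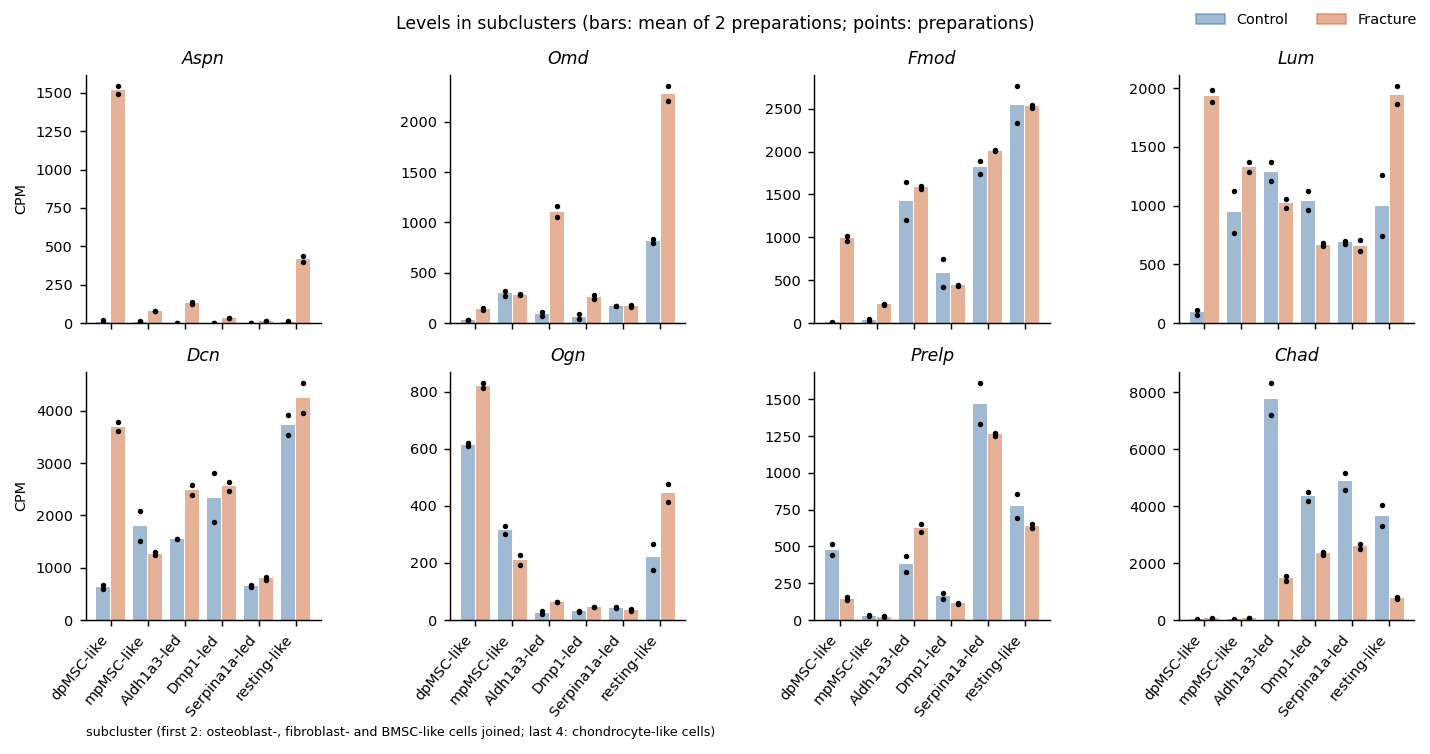
CPM of 8 genes in 2 subclusters of the joined osteoblast-like, fibroblast-like and BMSC-like cells and 4 subclusters of chondrocyte-like cells. Bars give the mean of the 2 preparations of a group and points the preparations. Aspn in dpMSC-like cells stands at 1542 and 1492 CPM in Fracture, and Chad is lower in Fracture in the 4 chondrocyte-like subclusters shown.

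The change was next compared between classes, with a class-by-group term fitted over 2 classes at a time and the preparation as a block. Over 6 pairs of the 4 skeletal classes, 7 to 9 of the 10 members differed. Between chondrocyte-like and osteoblast-like cells 9 members differed beside 29.0% of all genes, between chondrocyte-like and BMSC-like cells 7 beside 45.3%, between chondrocyte-like and fibroblast-like cells 9 beside 16.8%, between osteoblast-like and BMSC-like cells 7 beside 35.4%, between osteoblast-like and fibroblast-like cells 8 beside 16.0%, and between BMSC-like and fibroblast-like cells 7 beside 19.7%. The change of Dcn was higher in chondrocyte-like than in fibroblast-like cells by 2.31 ± 0.18 on the log2 scale (edgeR adjusted p = 0.000205). It was higher in BMSC-like than in fibroblast-like cells by 2.24 ± 0.18 (edgeR adjusted p = 7.74e-05). The change of Fmod was lower in chondrocyte-like than in BMSC-like cells by a log2 value of -4.89 ± 0.70 (edgeR adjusted p = 0.00143). The change of Omd was higher in chondrocyte-like than in osteoblast-like cells by 1.99 ± 0.09 (edgeR adjusted p = 5.41e-07) and higher than in fibroblast-like cells by 3.33 ± 0.21 (edgeR adjusted p = 6.87e-05). The change of Chad was higher in chondrocyte-like than in fibroblast-like cells by 2.32 ± 0.25 (edgeR adjusted p = 0.000799), both classes having fallen. The change of Aspn did not pass the test between chondrocyte-like and BMSC-like cells (-0.74 ± 0.36, edgeR adjusted p = 0.13). Without Fracture preparation 2, 4 members differed between osteoblast-like and fibroblast-like cells.

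Over all stromal cells together, 3 members rose and none fell by edgeR, beside 40.0% of all genes called. Aspn rose from 63.2 and 35.5 CPM to 265 and 254 CPM (2.60 ± 0.32, edgeR adjusted p = 0.00981), Omd from 162 and 117 CPM to 680 and 626 CPM (2.43 ± 0.20, edgeR adjusted p = 0.00533), and Fmod from 665 and 360 CPM to 1225 and 1224 CPM (1.46 ± 0.34, edgeR adjusted p = 0.0331). Without Fracture preparation 1 no member was called and without Fracture preparation 2 only 1 (Omd), with 3 at an unadjusted p under 0.05 in both, whereas 7 and 8 were called without Control preparation 1 and 2, and DESeq2 called 7. In such sums, more cells of a class and more RNA per cell cannot be told apart. The classes were weighted in turn by their shares of UMIs, which for chondrocyte-like cells were 27.2% in Control and 64% in Fracture. These shares still join the number of cells with the RNA per cell. With the levels of Fracture at the class shares of Control, the log2 ratio of Aspn was 2.42, and with the levels of Control at the class shares of Fracture it was -0.06. Omd gave 1.45 and 0.31 in this order. Fmod gave 0.50 and 1.19, so the larger term for Fmod was the shares. Chad gave -1.55 and 1.21, Epyc -0.64 and 1.22, and Prelp -0.63 and 0.96, and each of these had levels and shares of opposite sign. Their log2 ratios over the pool were -0.49, 0.47 and 0.38. With equal weight for each class the log2 ratio of Aspn was 1.20, that of Omd 1.24, that of Fmod 0.93 and that of Chad -1.77.

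The classes that the UMIs came from shifted in the same data. Osteoblast-like cells gave 64.0% ± 8.94 of Dcn UMIs in Control and 24.6% ± 0.565 in Fracture, while chondrocyte-like cells gave 9.99% ± 2.07 and 50.6% ± 1.58 (SD, n = 2). Chondrocyte-like cells gave 40.4% ± 6.18 of Omd UMIs in Control and 91.1% ± 0.194 in Fracture. For Ogn, BMSC-like cells gave 73.2% ± 14.8 in Control and 31.8% ± 0.757 in Fracture. Smooth muscle-like cells gave 55.9% ± 0.763 of Aspn UMIs in Control, and in Fracture fibroblast-like cells gave 42.1% ± 2.07, chondrocyte-like cells 32.0% ± 0.82 and BMSC-like cells 21.4% ± 1.13. Epyc and Chad came from chondrocyte-like cells in both groups, at 98.7% ± 0.419 and 96.7% ± 0.369 for Epyc and 93.9% ± 1.29 and 95.6% ± 0.248 for Chad.

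**Figure D5:**
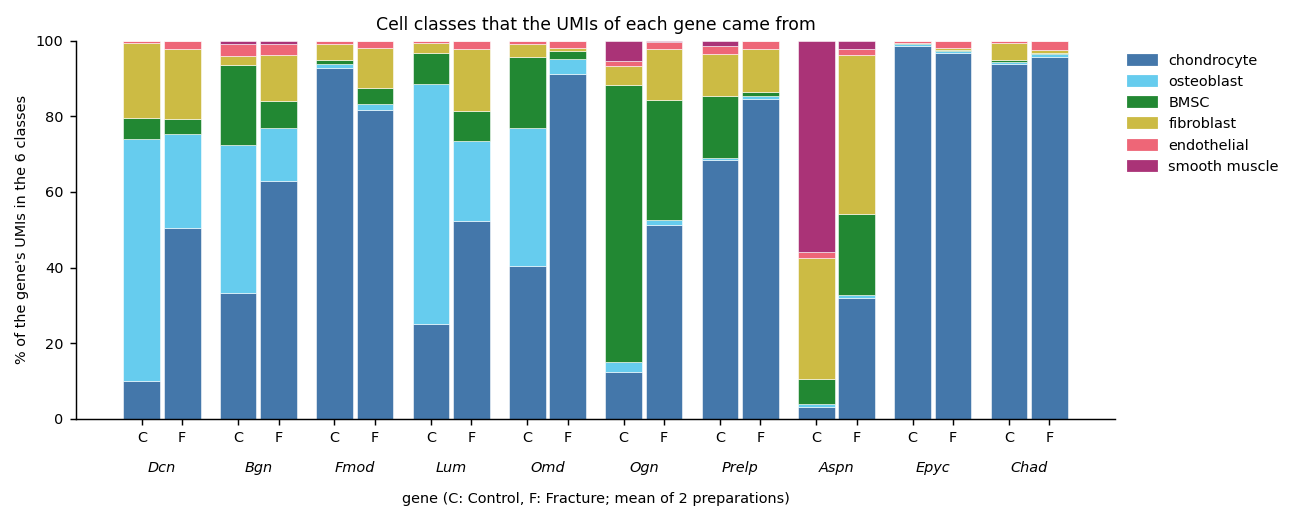
Percentage of each gene's UMIs that came from each of the 6 stromal classes, as the mean of 2 preparations (C, Control; F, Fracture). Smooth muscle-like cells give 55.9% of Aspn in Control, and chondrocyte-like cells give 91.1% of Omd in Fracture.

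Genes that work with these proteins were counted for comparison. Of 13 genes for the collagens that the proteins bind and for the proteases Bmp1 and Tll1, 13 rose in BMSC-like cells with a median log2 fold change of 2.26, beside a median of -0.03 over all genes tested and 50.6% of them called, and 12 of 13 rose in fibroblast-like cells with a median of 1.95, beside 15.8%. In chondrocyte-like cells 6 rose and Col6a3 fell (median 0.44) beside 37.3%, and in osteoblast-like cells 6 of 12 tested rose and Col2a1 fell (median 0.29) beside 16.4%. In endothelial-like cells 12 of 13 rose (median 2.46) beside 36.2%, and in smooth muscle-like cells 11 of 12 tested rose (median 2.47) beside 25.9%. Col2a1, also a chondrocyte marker, went from 1278 and 462 CPM to 9484 and 9752 CPM in endothelial-like cells. The part of cartilage RNA in these rises was not tested. Col3a1, Col5a1, Col6a2 and Col6a3 were called in all 6 classes. Their log2 fold changes ran from 2.36 to 6.54 for Col3a1, 0.45 to 2.69 for Col5a1, 0.45 to 2.91 for Col6a2 and -0.67 to 3.43 for Col6a3, and 8 other genes of this list were called in 4 or 5 classes. Col3a1, which encodes a fibrillar collagen, was at 489 and 252 CPM in Control and 5812 and 5881 CPM in Fracture BMSC-like cells. Of 25 genes for chondroitin and dermatan sulfate synthesis, 11 rose and 4 fell in BMSC-like cells (median 0.44), beside 50.6% of all genes called, and 6 rose and 7 fell in chondrocyte-like cells (median -0.06), beside 37.3%. In this list 7 genes were called in most classes, namely Papss2 (-0.49 to 2.22) and Xylt1 (-0.47 to 2.14) in 5, and Chpf (0.74 to 2.37), Chst12 (0.29 to 1.05), Slc26a2 (0.71 to 1.12), Chst3 (-1.33 to -0.72) and Chst15 (-1.62 to -0.63) in 4. Chst15, a sulfotransferase, fell in chondrocyte-like cells from 51.7 and 46.5 CPM to 16.7 and 16.8 CPM (-1.40 ± 0.07, edgeR adjusted p = 0.00161) and in BMSC-like cells from 70.9 and 87.9 CPM to 21.9 and 23.2 CPM (-1.62 ± 0.14, edgeR adjusted p = 0.00292). Of 7 genes for keratan sulfate synthesis, Chst1, the keratan sulfate sulfotransferase, rose in chondrocyte-like cells from 24.8 and 32.3 CPM to 59.2 and 57.3 CPM (1.18 ± 0.15, edgeR adjusted p = 0.00811), and 2 of the 6 tested rose and 1 fell there, beside 37.3% of all genes called. Chst1 was called in 5 classes (1.18 to 4.44), with 4.44 in osteoblast-like cells at 0.16 and 0.0489 CPM in Control and 2.74 and 2.69 CPM in Fracture. B4galt4 fell in 3 classes (-1.31 to -0.93) and Chst5 in 2 (-2.73 to -1.98). Chst2 and Fut8 each rose in 1 class and fell in 1, and B4galt1 rose in 1. The median of the list was -0.01 in chondrocyte-like, -0.04 in osteoblast-like, -0.20 in BMSC-like, -0.22 in fibroblast-like, -0.13 in endothelial-like and 0.60 in smooth muscle-like cells. Of 8 other genes of the proteoglycan family, Chadl (-0.90 to 2.48) was called in 5 classes and Podnl1 (0.51 to 2.11) in 4. Kera, known from the cornea and chosen after its values were seen, rose in fibroblast-like cells from 7.13 and 3.13 CPM to 98.3 and 89.6 CPM (4.11 ± 0.30, edgeR adjusted p = 0.0052), the only one of the 6 tested that was called there.

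Across the 24 sums of 6 classes and 4 preparations, each member was set beside 9061 genes with a mean of at least 10 CPM. Epyc was most like the cartilage collagen gene Col9a3 (Pearson's r = 0.979 of log2(CPM + 1)), and Chad was most like Ncmap and Fxyd3 (r = 0.97 for both). Aspn was most like Inhba (r = 0.945) and the tendon gene Tnmd (r = 0.943). Fmod was most like Lsp1 (r = 0.973), Lum like Tmed3 (r = 0.967), Bgn like Fam114a1 (r = 0.959), Prelp like Nek1 (r = 0.942), Dcn like Boc (r = 0.924), Ogn like Smoc1 (r = 0.916) and Omd like Smoc2 (r = 0.901). Among the members, Dcn and Lum (r = 0.88), Bgn and Lum (r = 0.87) and Epyc and Chad (r = 0.83) were the most alike pairs, whereas Aspn and its neighbour on chromosome 13, Omd, gave r = -0.07. These sums share preparations and free RNA, so the correlations describe the tables and carry no test.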

How the data were processed

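Each of the 8 libraries was deposited as a table of UMI counts per gene and cell barcode. The submitters' processing notes name bcl2fastq 2.19.1.403, UMI-tools 1.0.0, STAR 2.7.3a, featureCounts 1.6.4 and build mm10, while the study's methods name fastp, STARsolo and a GENCODE annotation. Which route gave the deposited counts, whether strand was used and how barcodes were selected before deposit is not given in the sources used here, so that the share of free RNA may differ between the groups. The methods name EmptyDrops as a filter on count matrices, with cell thresholds given for other datasets of the study, and whether these tables were deposited before or after it is not stated. Reads that fit more than one gene may have been dropped or split.

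Cells with 500 to 6000 genes and at most 25% mitochondrial UMIs were kept, and genes found in at least 3 cells. Libraries were integrated and clustered in Seurat 5.3.0 (2000 variable genes, 12 components, resolution 0.1) without the proteoglycan and related genes, and clusters were named from markers. Subclusters used 13 components and resolutions of 0.08 and 0.1. Scrublet in scanpy 1.11.5 called 722 doublets (1.59%), which were kept. The 2 libraries of a preparation correlated at r of 0.998 to 0.999 over genes and were summed. UMI counts per class and preparation were tested with edgeR 4.0.16 (quasi-likelihood, TMM, filterByExpr, Benjamini-Hochberg over all genes, threshold 0.05), with at least 20 cells in each preparation. The class-by-group term used the sums of both classes with the preparation as a block. Gene positions come from a GENCODE annotation of GRCm38. Levels, subclusters, shares of cells and the make-up of UMIs are descriptions and were not tested. Alternatives were DESeq2 1.42.0, its size factors in edgeR, no filter on low counts, no integration, no doublets, cells with at least 3000 UMIs, the preparation number as a block, and leaving out each preparation. All 10 proteoglycan genes are described in every class, genes of related lists by counts, with the log2 range of most of those named that were called in more than 3 classes, and like genes as 1 or 2 of the 3 highest correlations. The members and lists were chosen with earlier results of these data known. Intervals were not formed, and counts of UMIs carry counting error in addition to the spread shown.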

Additional observations from a re-analysis of the deposited data

Results flagged for a closer look

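The class-by-group term was fitted among chondrocyte-like, osteoblast-like, BMSC-like and fibroblast-like cells. Among these 4 classes, 2 members were called in opposite directions with a term that passed the test, while over all 6 classes 6 members were called up in 1 class or more and down in another, of which the differences that involve endothelial-like or smooth muscle-like cells were not tested. The share of all genes called in opposite directions is not given here, so neither count can be read as high for these members. Dcn rose in chondrocyte-like and fell in fibroblast-like cells, with a difference of 2.31 ± 0.18 on the log2 scale (edgeR adjusted p = 0.000205, 2 against 2 preparations). It also rose in BMSC-like and fell in fibroblast-like cells, with a difference of 2.24 ± 0.18 (edgeR adjusted p = 7.74e-05). Epyc fell in chondrocyte-like and rose in fibroblast-like cells, with a difference of -2.35 ± 0.22 (edgeR adjusted p = 0.000408). Summed over 9 chondrocyte markers, fibroblast-like cells held 3222 and 1974 CPM in Control and 11030 and 10340 CPM in Fracture, and the part of this in the rise of Epyc was not tested. Epyc reached 19.6 and 22.1 CPM there in Fracture, beside 29.6 and 27.4 CPM in basophil- or granulocyte-like and 43.6 and 45.7 CPM in megakaryocyte-like cells (only 23 and 21 cells). The fall of Dcn in fibroblast-like cells was not called without called doublets (ratio of mean levels 0.355, against 0.353 with them), and the rise in BMSC-like cells was not called without integration. The rise of Epyc in fibroblast-like cells was not called without integration either, at 0.91.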

How the results depend on the processing

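Of the 42 calls within classes and over all stromal cells, 29 were kept under every setting that used all 4 preparations, and 40 kept their direction in all settings. The number of members called in osteoblast-like cells was 5 with DESeq2, 6 without a filter and 5 without called doublets, against 3. It was 9 without a filter in fibroblast-like cells, against 5, and 4 without integration in smooth muscle-like cells, against 7. Over all stromal cells DESeq2 called 7, against 3. The share of all genes called under these alternative settings is not given, so the counts here have no such background. When 1 preparation was left out, the counts ran from 0 to 9 in chondrocyte-like, 0 to 7 in osteoblast-like, 1 to 10 in BMSC-like, 0 to 9 in fibroblast-like, 0 to 10 in endothelial-like and 0 to 4 in smooth muscle-like cells, from 0 to 8 over all stromal cells, and from 4 to 8 for the term between osteoblast-like and fibroblast-like cells. With 1 preparation left in a group, that preparation is assumed to vary like the other group. With the preparation number as a replicate block, 6, 2, 6, 4, 8 and 9 members were called in chondrocyte-like, osteoblast-like, BMSC-like, fibroblast-like, endothelial-like and smooth muscle-like cells and 3 over all stromal cells. Calls lost with this block were Ogn and Prelp in chondrocyte-like, Omd in osteoblast-like, Bgn in BMSC-like and Dcn in fibroblast-like cells. Ogn and Epyc in endothelial-like cells were lost with it as well. The preparation numbers were not shown to pair the preparations, since same-numbered preparations correlated at 0.012 to 0.073 in their deviations.

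Some log2 fold changes reversed. Without integration, Dcn was at -0.13, Bgn at -0.31 and Ogn at -0.94 in BMSC-like cells, and Chad at -0.45 in smooth muscle-like cells. In osteoblast-like cells Ogn was at -0.10 without called doublets. With equal weight for each class, Ogn was at -0.10, Prelp at -0.69 and Epyc at -0.45 over all stromal cells. Leaving out 1 preparation gave ranges from -0.24 to 0.27 for Ogn and from -0.08 to 0.23 for Lum in osteoblast-like cells, from -0.08 to 0.14 for Fmod in chondrocyte-like cells, and from -0.26 to 0.10 for Dcn, -0.47 to 0.00 for Chad and -0.01 to 0.11 for Ogn over all stromal cells.

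Among the class-by-group terms, those without integration reversed for Bgn (0.57) and Aspn (1.39) between chondrocyte-like and BMSC-like cells, for Bgn (0.55), Ogn (1.26) and Aspn (0.09) between osteoblast-like and BMSC-like cells, and for Lum (0.03) between BMSC-like and fibroblast-like cells. With DESeq2's size factors, Bgn was at -0.01 between chondrocyte-like and osteoblast-like cells and Ogn at 0.02 between BMSC-like and fibroblast-like cells. Between osteoblast-like and BMSC-like cells, Epyc was at -0.07 in cells with at least 3000 UMIs and Chad at 0.31 without called doublets. Leaving out 1 preparation gave ranges from -0.04 to 0.08 for Bgn (chondrocyte-like minus osteoblast-like), -0.19 to 0.29 for Dcn (chondrocyte-like minus BMSC-like), -0.21 to 0.34 for Prelp (chondrocyte-like minus fibroblast-like), -0.52 to 0.10 for Ogn and -0.75 to 0.01 for Chad (osteoblast-like minus BMSC-like), -0.42 to 2.07 for Epyc (osteoblast-like minus fibroblast-like), and -0.26 to 0.18 for Ogn and -0.59 to 1.94 for Epyc (BMSC-like minus fibroblast-like). The cause of these shifts was not tested. Of 240 levels by class recomputed without called doublets or with at least 3000 UMIs, 219 moved by less than 1 SD, and subcluster levels were not recomputed. The 2 preparations a group and the depth of small classes limit the precision.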
